A study of Mus musculus with 30 samples.

Results

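The proteasome genes of mouse diaphragm were followed across 8 groups of libraries. They were taken as the protein-coding genes whose symbols start with Psma, Psmb, Psmc, Psmd, Psme, Psmf or Psmg and a number, without pseudogenes, which gave 50 of the 33076 genes in the count table. The 50 genes comprised 14 constitutive core subunits, 3 immunoproteasome subunits (Psmb8, Psmb9 and Psmb10), 2 tissue-restricted core subunits (Psma8 and Psmb11), 9 base and 8 lid subunits of the regulatory particle, 3 base assembly chaperones, 6 activators or inhibitors, 4 core assembly chaperones and Psmc3ip. Psmc3ip matched by name only: it encodes a cofactor of meiotic recombination and not a proteasome subunit. In all, 48 of the 50 genes had enough reads for testing in every fit, while Psma8 had 49 reads and Psmb11 had 1 read over the 30 libraries.

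RNA was sequenced from perisynaptic pieces of diaphragm, which contain neuromuscular junctions, and from extrasynaptic pieces, which lack them, both cut from the same 15 male mice. SBMA mice carried BACfxAR121 (spelled BACfxR121 in the sample labels), a floxed transgene for a polyglutamine-expanded human androgen receptor that models spinal and bulbar muscular atrophy. Control mice were littermates with HSA-Cre;BACfxAR121, so both genotypes carried the transgene and the controls differed by Cre recombinase driven by a skeletal muscle promoter; this compares a muscle-rescued with an unrescued animal, not a transgenic with a wild-type one. At 15 weeks there were 3 control and 4 SBMA mice, and at 26 weeks 4 of each, each giving 1 perisynaptic and 1 extrasynaptic library.

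The proteasome degrades proteins that carry ubiquitin chains. Its barrel-shaped core particle is built of alpha rings and beta rings, and Psmb5, Psmb6 and Psmb7 supply the chymotrypsin-like, caspase-like and trypsin-like active sites. Interferon induces Psmb8, Psmb9 and Psmb10, which take the places of those catalytic subunits to form the immunoproteasome of immune cells and inflamed tissue. The regulatory particle caps the core: the lid holds the deubiquitinase Psmd14, and the base holds the ATPase ring (Psmc1 to Psmc6) that unfolds substrates together with the large scaffolds Psmd1 and Psmd2. In skeletal muscle the ubiquitin-proteasome system breaks down myofibrillar proteins during atrophy, and the transcription factor Nfe2l1, acting at antioxidant response elements, is known to raise many subunit genes together when proteasome activity falls short.

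Proximal promoters are shown for genes on which the results below turn: 4 lid genes that were higher in SBMA (Psmd8, Psmd11, Psmd12 and Psmd14) and 2 constitutive catalytic genes that were not called (Psmb5 and Psmb6). The sequences are from RefSeq (GRCm38.p6), 5′ to 3′ on the strand of the gene, each the part of the 250 bases before the transcription start that is clear of annotated exons. Capitals mark matches to the antioxidant response element core, TGACNNNGC, on either strand. They lie at chr7:29180702-29180923 on the minus strand (Psmd8), chr11:80428365-80428614 on the plus strand (Psmd11), chr11:107479278-107479483 on the plus strand (Psmd12), chr2:61711444-61711693 on the plus strand (Psmd14), chr14:54618023-54618245 on the minus strand (Psmb5) and chr11:70525107-70525356 on the plus strand (Psmb6).
Psmd8: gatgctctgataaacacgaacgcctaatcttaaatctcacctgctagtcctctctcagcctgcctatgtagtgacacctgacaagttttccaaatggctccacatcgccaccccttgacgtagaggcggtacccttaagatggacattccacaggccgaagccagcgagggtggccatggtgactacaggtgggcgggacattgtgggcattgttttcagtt
Psmd11: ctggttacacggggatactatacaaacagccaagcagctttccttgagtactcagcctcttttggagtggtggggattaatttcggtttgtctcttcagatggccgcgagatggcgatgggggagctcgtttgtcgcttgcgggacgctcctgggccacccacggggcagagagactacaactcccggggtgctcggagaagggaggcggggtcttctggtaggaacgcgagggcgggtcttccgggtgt
Psmd12: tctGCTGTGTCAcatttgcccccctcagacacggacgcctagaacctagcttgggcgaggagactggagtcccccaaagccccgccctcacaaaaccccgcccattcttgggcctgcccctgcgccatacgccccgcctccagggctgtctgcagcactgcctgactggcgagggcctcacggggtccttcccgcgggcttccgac
Psmd14: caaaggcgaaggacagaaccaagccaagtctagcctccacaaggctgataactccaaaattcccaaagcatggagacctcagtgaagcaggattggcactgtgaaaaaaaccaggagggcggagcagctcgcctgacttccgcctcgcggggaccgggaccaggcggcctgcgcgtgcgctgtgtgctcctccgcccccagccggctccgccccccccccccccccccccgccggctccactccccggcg
Psmb5: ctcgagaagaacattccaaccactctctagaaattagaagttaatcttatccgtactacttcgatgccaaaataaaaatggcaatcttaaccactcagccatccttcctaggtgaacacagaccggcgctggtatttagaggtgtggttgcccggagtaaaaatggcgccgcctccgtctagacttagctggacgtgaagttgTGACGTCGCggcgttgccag
Psmb6: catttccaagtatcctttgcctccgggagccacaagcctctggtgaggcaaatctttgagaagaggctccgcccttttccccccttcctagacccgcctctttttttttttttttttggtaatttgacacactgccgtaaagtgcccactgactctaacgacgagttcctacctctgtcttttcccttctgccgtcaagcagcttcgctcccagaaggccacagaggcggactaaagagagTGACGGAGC
The Psmb5 match began 47 bases and the Psmb6 match 9 bases before the start, both on the gene's own strand, and the Psmd12 match lay on the opposite strand. Of the 42 members with a promoter in the table, 5 held the motif (Psmb5, Psmb6, Psmc6, Psmd9 and Psmd12), which is 11.9%, against 11.5% of the 27025 genes in that table. Among the 13 members that rose in extrasynaptic SBMA muscle at 26 weeks, all matched, 2 held the motif (Psmc6 and Psmd12), and among the 26 matched members that did not pass that test 3 held it. The share was thus close to that of all genes, and the absence of these letters from a window says nothing of the factor.

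Total counts ranged from 16280873 to 34694446 per library, and no pair of libraries held identical values. The junction gene Chrne lay between 16.3 and 35.9 CPM (the standard library-size-scaled count, here after TMM normalization) in perisynaptic and between 0.0326 and 4.38 CPM in extrasynaptic libraries, so every perisynaptic library exceeded every extrasynaptic one. Summed CPM of 11 muscle fibre markers at 26 weeks was 112600 to 128400 in control and 58000 to 66080 in SBMA perisynaptic libraries. In extrasynaptic ones it was 120100 to 130200 against 61060 to 69470. Of the 11, 8 were called lower and 1 higher in each region, beside 5.97% and 8.04% of all perisynaptic and 16.1% and 16.1% of all extrasynaptic genes. At 15 weeks the sums were also apart, at 122500 to 130400 against 83390 to 96200 in perisynaptic libraries. Extrasynaptic ones then had 124300 to 141500 against 81140 to 93490. The part of these markers in the proteasome results was not tested. In such bulk tissue, fewer cells of a type and less RNA per cell cannot be told apart. Replicate 2 of the 26-week control perisynaptic group stood apart: it had the highest value of its group for 35 of the 48 tested proteasome genes, including 12 of 14 core genes and all 3 immunoproteasome genes, and the values that it moves most are given with and without this mouse.

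Per base of exon, the constitutive subunits were among the most abundant of these transcripts. On CPM divided by exon length in kilobases (RPKM, mean of the 8 group means), the base ATPase Psmc3 was highest at 96.8, followed by the alpha subunit Psma6 at 94.7 and the catalytic Psmb6 at 75.7. Other constitutive genes spread over more than an order of magnitude, down to Psma3 at 5.53 RPKM. Between these ends lay the lid genes Psmd7 at 58.7, Psmd12 at 46.6, Psmd8 at 41.4 and Psmd11 at 15.5 RPKM. The large scaffolds differed, with Psmd2 at 55.5 and Psmd1 at 21.0 RPKM.

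Each immunoproteasome gene was below its constitutive counterpart per length. Psmb8 stood at 2.37 RPKM against 27.8 for Psmb5, Psmb9 at 0.990 against 75.7 for Psmb6, and Psmb10 at 11.0 against 44.2 for Psmb7. Psme4, a proteasome activator found mainly in the nucleus, was well expressed at 27.2 RPKM. The testis-restricted alpha subunit Psma8 and the thymus-restricted beta subunit Psmb11 were near the floor, at 0.0276 and 0.000357 RPKM. These levels assume all annotated exons of a gene are used, so isoforms with shorter exons shift them.

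**Figure D1:**
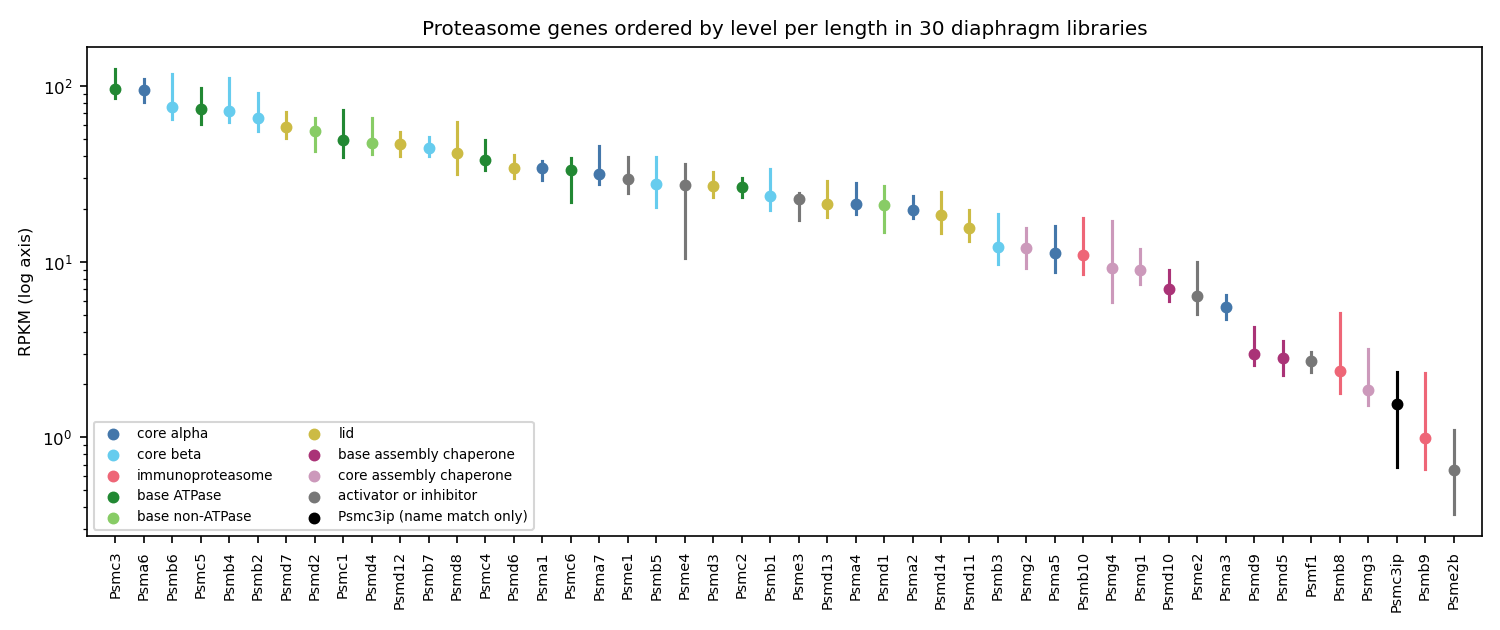
Level of 48 proteasome genes on a log axis in RPKM, by class. Points are the mean of the 8 group means and lines run from the lowest to the highest of the 30 libraries; Psmc3 at 96.8 RPKM is highest among the constitutive subunits, and Psmb8 and Psmb9 lie far below Psmb5 and Psmb6.

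In extrasynaptic muscle at 26 weeks, SBMA mice had more transcript of 9 of the 17 lid and base genes than muscle-rescued controls, while most core genes did not pass the test. Of the 48 tested members, 13 rose and 4 fell at an adjusted p under 0.05 (edgeR quasi-likelihood test, Benjamini-Hochberg over all genes), where 16.1% of all 15526 tested genes rose and 16.1% fell, or 32.2% in all. The share of members called in either direction was thus close to that of all genes. The risers were 5 of 8 lid genes, 4 of 9 base genes, 2 of 3 base chaperones, the activator Psme4 and 1 of 14 core genes. The fallers were Psmc3ip, the immunoproteasome subunit Psmb8, the core chaperone Psmg2 and the beta subunit Psmb2. Scaled by total counts in place of TMM, which puts the median of all genes at 0.18 in place of -0.03, 22 members rose and 1 fell, and 84.8% of all called genes were higher. Comparing only the 4 mice of that age with the last library numbers (control and SBMA replicates 3 and 4), 5 members rose and 0 fell, among 2104 called genes. For the other 4 mice 12 members passed. Both comparisons took the spread between mice from all 15 libraries of the region. The p-values cover the spread between these mice, each of which the library names give as its own animal.

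Psmd1, the large base scaffold that docks a ubiquitin receptor, had the largest rise. It measured 133, 133, 131 and 155 CPM in the 4 control and 189, 178, 196 and 176 CPM in the 4 SBMA libraries. All 4 SBMA libraries were above all controls, and the log2 difference was 0.42 (SE 0.063, 95% interval 0.29 to 0.56, adjusted p = 0.000163). Control replicate 4 was the highest of its group, and the difference without any one mouse stayed called.

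Among lid genes the largest difference was in Psmd8, which helps join the lid to the base. Its values were 111, 131, 97.8 and 106 CPM in control and 161, 142, 149 and 139 CPM in SBMA, with no overlap, and the log2 difference was 0.41 (SE 0.093, adjusted p = 0.00373). Psmd11, a lid subunit that clamps the regulatory particle to the core, measured 94.0, 89.9, 86.6 and 97.5 CPM in control and 122, 112, 117 and 109 CPM in SBMA. Its groups were apart as well, at a log2 difference of 0.32 (SE 0.058, adjusted p = 0.000733).

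The base assembly chaperones Psmd5 and Psmd10 escort ATPase subunits before the regulatory particle is complete. Psmd10 was 9.48, 10.4, 9.29 and 8.78 CPM in control and 12.7, 11.2, 12.2 and 12.3 CPM in SBMA (log2 difference 0.35, SE 0.081, adjusted p = 0.00418). Psmd5 was 18.3, 19.7, 21.0 and 17.5 CPM in control and 24.1, 24.8, 22.6 and 24.2 CPM in SBMA (log2 difference 0.32, SE 0.074, adjusted p = 0.00401). For both, every SBMA library was above every control library. Psmd9, the remaining chaperone of this kind, had a log2 difference of -0.16 and did not pass the test.

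Psme4 measured 188, 169, 206 and 221 CPM in control and 254, 252, 302 and 229.8 CPM in SBMA. The groups were apart, with a log2 difference of 0.40 (SE 0.099, adjusted p = 0.00596). The other 7 risers had log2 differences from 0.22 to 0.31: the lid genes Psmd12, Psmd13 and Psmd14, the ATPases Psmc1 and Psmc6, the scaffold Psmd2 and the alpha subunit Psma5. Psmd14, the deubiquitinase, went from 49.7, 50.5, 45.0 and 54.2 CPM in control to 63.8, 58.4, 56.4 and 55.9 CPM in SBMA without overlap. Among those 7, the groups overlapped for Psmc6 and Psmd12.

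Lower values were seen in genes of other roles. Psmc3ip was 3.14, 3.801, 2.90 and 4.03 CPM in control and 1.24, 1.78, 1.498 and 2.18 CPM in SBMA, a log2 difference of -1.05 (SE 0.20, adjusted p = 0.00114) with groups apart. Psmg2, which pairs with Psmg1 to assemble alpha rings, was 23.4, 25.8, 21.3 and 21.3 CPM in control and 17.7, 19.7, 19.5 and 16.0 CPM in SBMA (log2 difference -0.33, SE 0.084, adjusted p = 0.00800), again without overlap. The noncatalytic beta subunit Psmb2 was 84.5, 92.1, 75.8 and 75.8 CPM in control and 75.5, 67.6, 67.2 and 70.5 CPM in SBMA. Its log2 difference of -0.23 had an adjusted p of 0.0216, and it lost its call in 4 of the 8 fits without 1 mouse (control replicates 1 and 2, SBMA replicates 2 and 3), with values from -0.26 to -0.17. Scaled by total counts, Psmg2 was at -0.12 and Psmb2 at -0.01, and neither passed.

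**Figure D2:**
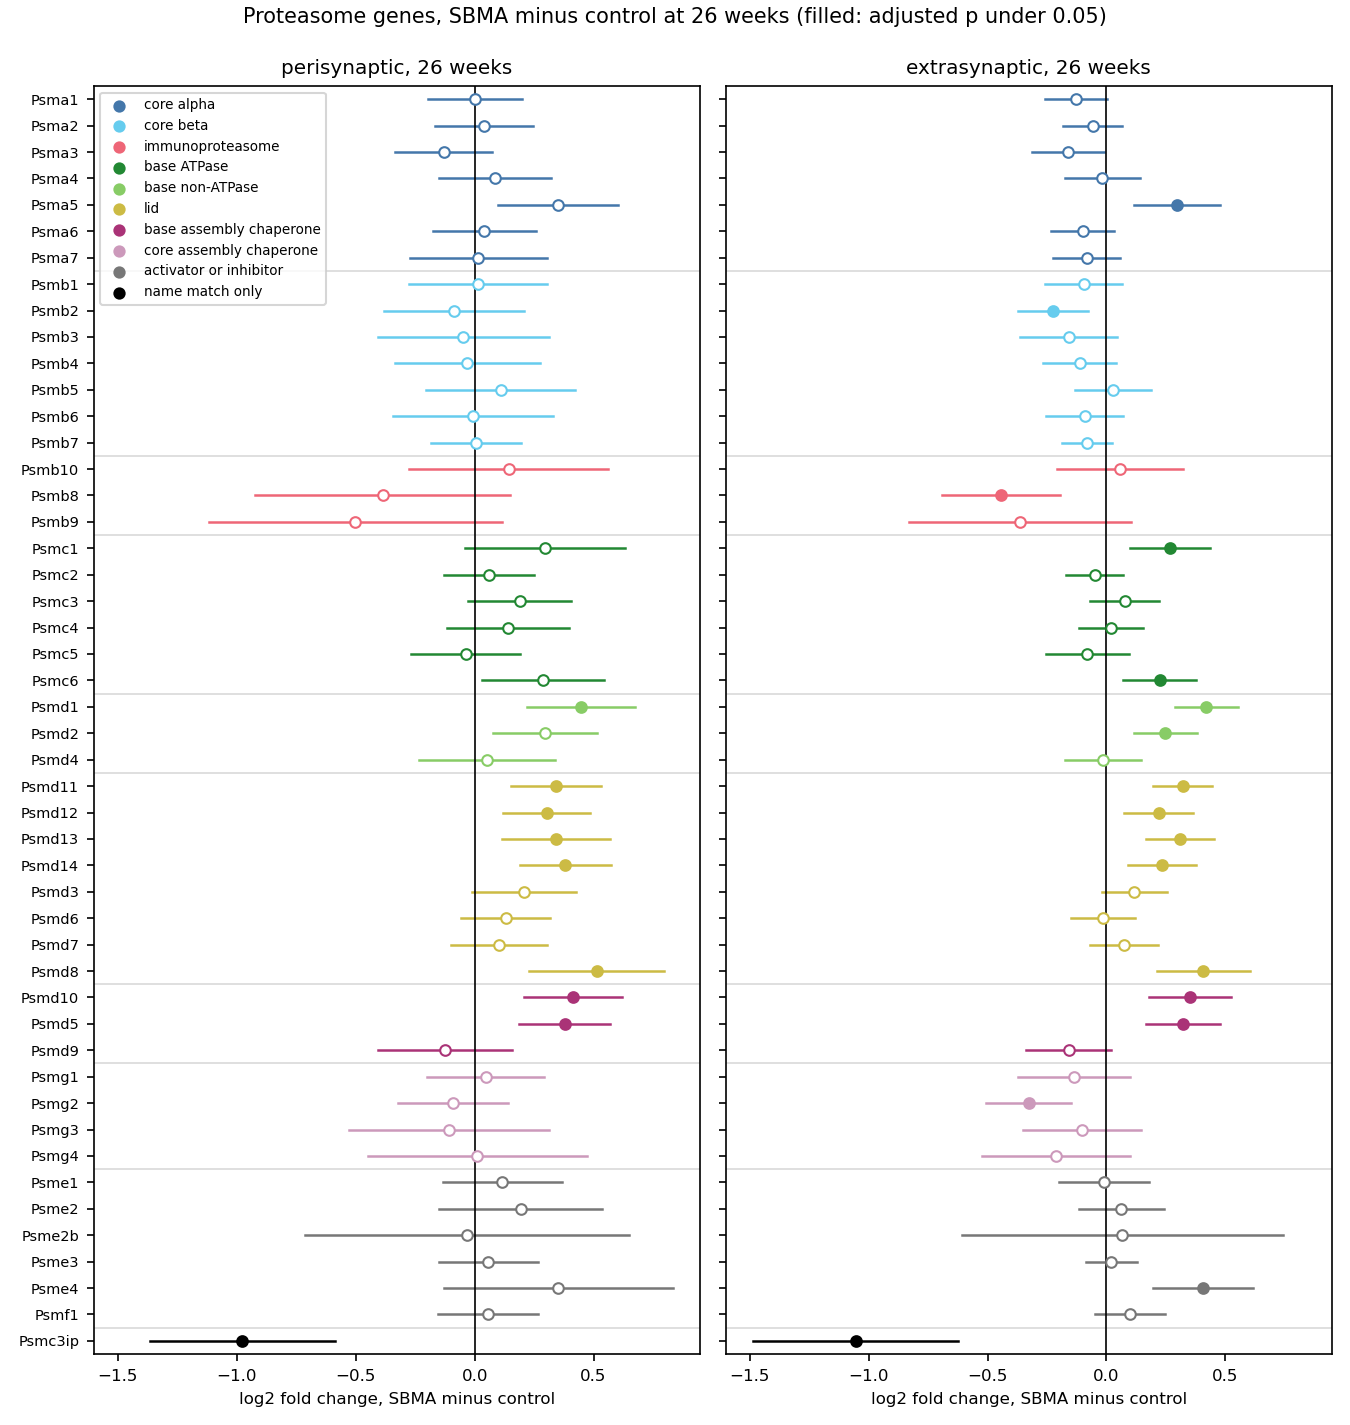
SBMA minus control at 26 weeks for the tested proteasome genes, perisynaptic and extrasynaptic, as log2 differences with 95% intervals; filled points passed an adjusted p under 0.05 (edgeR). Lid genes lie mostly to the right of 0, core genes around it, and Psmb8 and Psmc3ip to the left in both regions. Perisynaptic Psmb8 did not pass and was at 0.05 without control replicate 2.

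Perisynaptic muscle at 26 weeks gave a shorter list, all of it contained in the extrasynaptic one. Here 8 members rose and 1 fell, where 8.04% of all 15735 tested genes rose and 5.97% fell, or 14.0% in all. The risers were the lid genes Psmd8, Psmd11, Psmd12, Psmd13 and Psmd14, the scaffold Psmd1 and the chaperones Psmd5 and Psmd10. Psmc3ip fell. Scaled by total counts, which puts the median of all genes at 0.24 in place of -0.02, 19 members rose and 1 fell. Of all genes called with that scaling, 91.7% were higher. The lists of the 2 regions come from the same mice, so they are not separate evidence.

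Psmd8 measured 110.1, 129.6, 97.0 and 105 CPM in control and 191, 159.5, 139.9 and 135 CPM in SBMA perisynaptic libraries. The SBMA libraries were all above the controls, at a log2 difference of 0.51 (SE 0.13, 95% interval 0.23 to 0.80, adjusted p = 0.0180). Psmd1 measured 131, 107, 141 and 159 CPM against 178, 176, 192 and 185 CPM, also apart, at 0.45 (SE 0.11, adjusted p = 0.0107). Its lowest control value, 107 CPM, belonged to replicate 2, and the difference without this mouse was 0.35 and still passed.

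For the chaperone Psmd10 the values were 8.99, 9.17, 9.76 and 9.14 CPM in control and 13.2, 13.0, 11.0 and 11.8 CPM in SBMA, and for Psmd5 19.96, 16.3, 19.4 and 19.9 CPM and 25.7, 25.7, 24.5 and 21.6 CPM. Both pairs of groups were apart, with log2 differences of 0.41 (adjusted p = 0.00967) and 0.38 (adjusted p = 0.0106). Psmd14 went from 50.1, 44.3, 45.6 and 52.9 CPM in control to 69.9, 62.7, 59.5 and 57.5 CPM in SBMA (log2 difference 0.38, SE 0.091, adjusted p = 0.0106), and no control library reached the lowest SBMA one.

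Psmd11 had 86.0, 87.2, 88.8 and 97.2 CPM in control and 127, 106, 112 and 108 CPM in SBMA, at a log2 difference of 0.34 (adjusted p = 0.0167). Psmd12, a lid scaffold, had 113, 106, 111 and 123 CPM and 146, 142, 134 and 134 CPM, at 0.30 (adjusted p = 0.0291); both genes' groups were apart. Psmd13, at 66.9, 80.8, 63.1 and 68.5 CPM against 97.6, 94.8, 82.3 and 76.7 CPM, overlapped and had the largest adjusted p of the list (0.0443). Psmc3ip was 3.76, 4.28, 2.91 and 3.00 CPM in control and 2.06, 1.56, 1.52 and 1.87 CPM in SBMA, a log2 difference of -0.98 (SE 0.18, adjusted p = 0.00227) with groups apart. The calls of Psmd1, Psmd5, Psmd10, Psmd14 and Psmc3ip held without any one mouse, whereas Psmd12 lost it in 4 and Psmd13 in 6 of the 8 fits without 1 mouse. Psmd11 lost it without control replicate 1 or SBMA replicate 1, and Psmd8 without control replicate 3 or SBMA replicate 1. Without SBMA replicate 1, 5 members passed among 1686 called genes, and without control replicate 2, 13 did among 2706, beside 2204 in the main fit. Fitted on these 8 libraries alone, 2 members passed among 1302 called genes. Comparing only control and SBMA replicates 3 and 4, 0 members passed among 797 called genes, against 6 members for replicates 1 and 2. Those 2 comparisons took the spread between mice from all 15 libraries of the region.

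**Figure D3:**
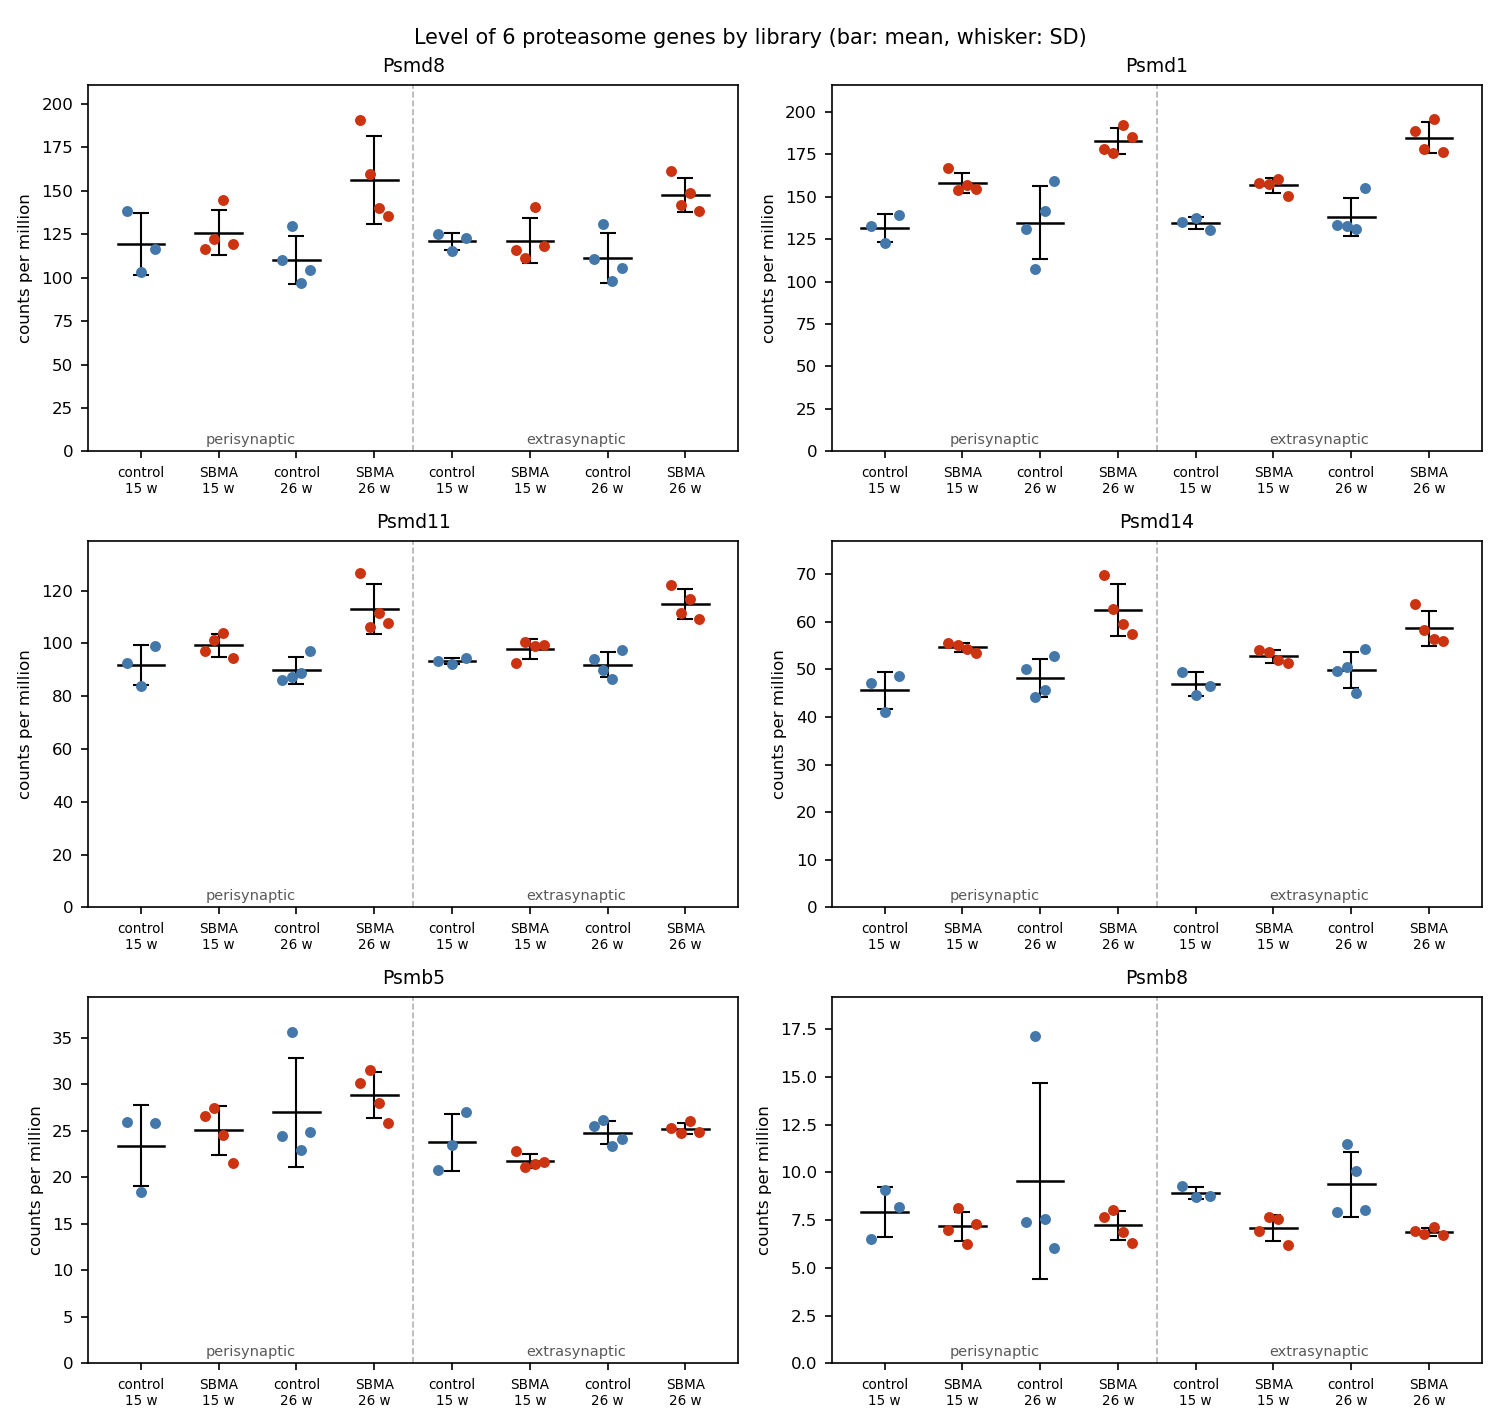
CPM of Psmd8, Psmd1, Psmd11, Psmd14, Psmb5 and Psmb8 in each library of the 8 groups, with the group mean. At 26 weeks the SBMA points of Psmd8, Psmd1, Psmd11 and Psmd14 lie above all control points in both regions, the Psmb5 points overlap, and 1 perisynaptic control library is far above the others for Psmb8 (17.2 CPM).

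The classes of the complex therefore differed in their counts of calls at 26 weeks. Lid and base genes were called higher for 9 of 17 in extrasynaptic and 6 of 17 in perisynaptic muscle, and constitutive core genes for 1 of 14 (Psma5) and 0 of 14. Among core genes, an unadjusted p under 0.05 was found for 3 in extrasynaptic muscle (Psma3, Psma5 and Psmb2). In perisynaptic muscle it was found for 1 (Psma5, which DESeq2 called there). Over all genes, 43.2% had such a p in extrasynaptic and 28.7% in perisynaptic muscle. Of the 48 tested members, 18 had it in extrasynaptic and 12 in perisynaptic muscle, a smaller share than that of all genes in both regions. The median log2 difference of the lid was 0.23 extrasynaptic and 0.32 perisynaptic, that of the base 0.08 and 0.19, and that of the core -0.09 and 0.01, beside -0.03 and -0.02 over all tested genes. Scaled by total counts, these medians were 0.44 and 0.58 for the lid, 0.29 and 0.45 for the base and 0.12 and 0.26 for the core, so the core median turned positive in extrasynaptic muscle, where the median of all genes was then 0.18 (0.24 in perisynaptic muscle). Without control replicate 2 the perisynaptic medians were 0.30 for the lid, 0.22 for the base and 0.14 for the core. Whether the classes differ was not tested, since the design gives no test over members.

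Summed over its 8 genes, the lid reached 772, 848, 719 and 806 CPM in control and 948, 901, 923 and 851 CPM in SBMA extrasynaptic libraries, with no overlap. In perisynaptic libraries it was 778, 844, 742 and 826 CPM against 1058, 981, 926 and 881 CPM, also apart. The 14 core genes summed to 1175, 1258, 1053 and 1129 CPM in control and 1082, 1092, 1070 and 1077 CPM in SBMA extrasynaptic libraries. These overlapped, as did the perisynaptic core sums, where control replicate 2 was highest at 1509 CPM. The other 3 perisynaptic controls (1078 to 1201 CPM) also overlapped the SBMA libraries (1124 to 1368 CPM).

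The balance of regulatory particle to core transcripts was computed in each library as the mean RPKM of the 17 lid and base genes over that of the 14 core genes. In extrasynaptic muscle at 26 weeks it was 99.7, 102, 103 and 108% in control and 125, 118, 124 and 116% in SBMA (mean 103% ± 3.73 and 121% ± 4.34, SD, n = 4 each). In perisynaptic muscle it was 99.0, 88.7, 105 and 106% and 112, 109, 117 and 116%. All SBMA libraries lay above all controls in both regions. At 15 weeks the perisynaptic groups overlapped, and the extrasynaptic ones were narrowly apart, at 106, 107 and 103% and 107, 108, 110.0 and 109.6%.

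**Figure D4:**
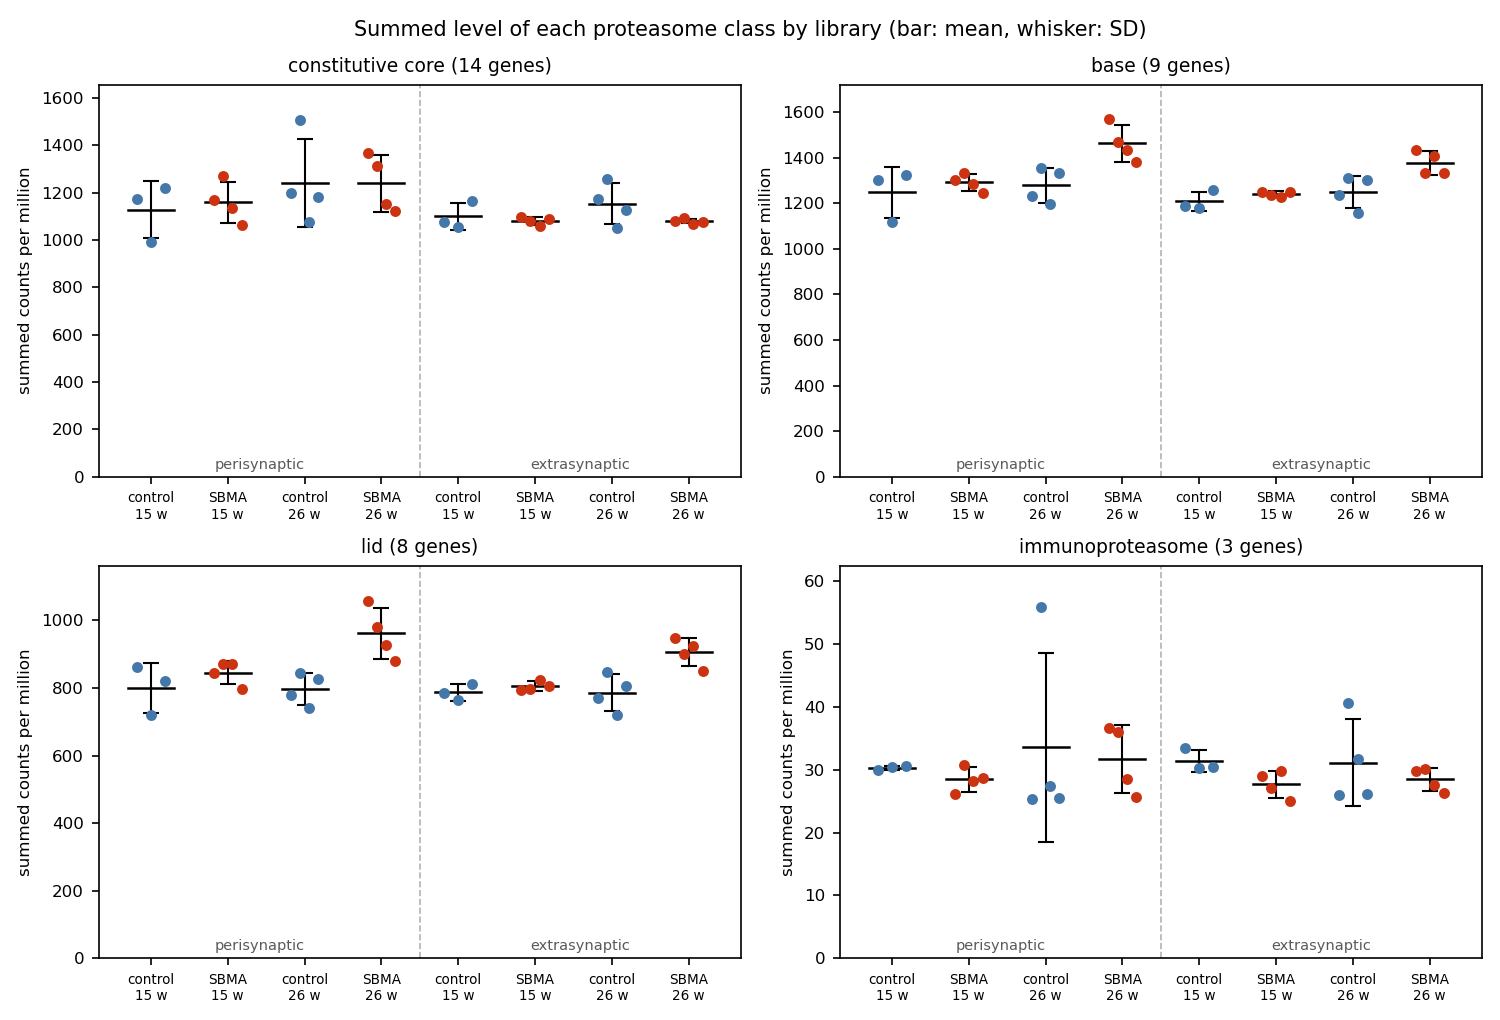
Summed CPM of the constitutive core, base, lid and immunoproteasome genes in each library of the 8 groups. The lid sums of SBMA and control do not overlap at 26 weeks in either region; the core and immunoproteasome sums of control perisynaptic replicate 2 (1509 and 55.9 CPM) stand above the other libraries of that group.

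Differences across all genes went with exon length, which also differs between the classes. From the shortest to the longest quartile of exon length, the median log2 difference between SBMA and control at 26 weeks ran -0.17, -0.07, 0.00 and 0.09 in extrasynaptic libraries, and -0.11, -0.04, 0.02 and 0.04 in perisynaptic ones. Of the 14 core genes, 8 were in the shortest quartile, against 1 of the 8 lid and 3 of the 9 base genes. Set against the median of its own quartile, every lid gene was higher in SBMA in both regions, by a median of 0.30 extrasynaptic and 0.33 perisynaptic, the base by 0.19 and 0.25 and the core by 0.01 and 0.07. Psmb2 was then at -0.05 and Psmg2 at -0.15 in extrasynaptic libraries. The part of length in the calls was not tested.

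Among the immunoproteasome subunits, Psmb8 was lower in SBMA extrasynaptic muscle at 26 weeks, Psmb9 and Psmb10 did not pass the test, and none of the 3 passed it in perisynaptic muscle (0 at an unadjusted p under 0.05 in edgeR, 0 called by DESeq2). In extrasynaptic libraries Psmb8 measured 7.95, 11.5, 10.1 and 8.02 CPM in control and 6.94, 6.76, 7.17 and 6.70 CPM in SBMA, without overlap (log2 difference -0.44, SE 0.117, 95% interval -0.69 to -0.19, adjusted p = 0.00952). Its call held without any one mouse, with values from -0.51 to -0.33, and was lost when scaled by total counts (-0.24, adjusted p = 0.179). Psmb9 was 2.57, 6.20, 3.91 and 3.00 CPM in control and 2.90, 2.71, 3.13 and 3.44 CPM in SBMA (-0.36, interval -0.83 to 0.10), and Psmb10 had a difference of 0.06 (interval -0.21 to 0.32). Psmb9 overlaps Tap1 on the opposite strand, and the strand setting of the counting is not given in the sources used here.

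In perisynaptic libraries at 26 weeks Psmb8 was 7.41, 17.2, 7.57 and 6.05 CPM in control and 7.69, 8.02, 6.86 and 6.32 CPM in SBMA. Only control replicate 2 lay above the SBMA range, and the log2 difference moved from -0.39 (interval -0.92 to 0.15) to 0.05 without it. Psmb9 moved from -0.50 (interval -1.12 to 0.11) to near 0 when the same mouse was left out, and Psmb10 from 0.14 (interval -0.28 to 0.56) to 0.43, which then passed (adjusted p = 0.0405). Summed CPM of 18 interferon and class I genes in that library was 1009, against 679 to 709 in the other 3 controls, and that of 8 endothelial markers was 853 against 508 to 529. Leukocyte markers, at 379 CPM, lay within the 270.5 to 411 CPM of the others. Their part in the immunoproteasome values was not tested.

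The catalytic counterparts Psmb5, Psmb6 and Psmb7 did not pass the test at 26 weeks in either region. Psmb5 measured 25.5, 26.1, 23.4 and 24.1 CPM in control and 25.3, 24.7, 26.0 and 24.9 CPM in SBMA extrasynaptic libraries at 26 weeks, a log2 difference of 0.03 (interval -0.13 to 0.19). Psmb6 and Psmb7 were at -0.09 (interval -0.25 to 0.07) and -0.08 (interval -0.19 to 0.02). In perisynaptic libraries Psmb5, Psmb6 and Psmb7 were at 0.11 (interval -0.20 to 0.42), -0.01 (interval -0.34 to 0.33) and 0.00 (interval -0.19 to 0.19). Without control replicate 2 these became 0.27 (adjusted p = 0.147), 0.19 (adjusted p = 0.326) and 0.02. The perisynaptic Psmb5 values were 24.4, 35.6, 22.9 and 24.9 CPM in control and 30.1, 31.5, 27.9 and 25.9 CPM in SBMA, so that every SBMA library lay above the controls other than replicate 2. Scaled by total counts, Psmb5 was at 0.24 in extrasynaptic libraries and passed (adjusted p = 0.0270), while Psmb6 and Psmb7 turned to 0.12 and 0.13 there without passing. The intervals bound the change of each gene and do not show equal levels.

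As a ratio per length, Psmb8 to Psmb5 in extrasynaptic libraries at 26 weeks was 8.30, 11.7, 11.4 and 8.83% in control and 7.30, 7.28, 7.32 and 7.15% in SBMA. The groups did not overlap there and overlapped in perisynaptic libraries. The ratios of Psmb9 to Psmb6 and of Psmb10 to Psmb7 overlapped between genotypes in every region and age. Beside the lower Psmb8, 16 tested leukocyte markers included 11 that fell and none that rose in extrasynaptic muscle at 26 weeks, their sum being 265 to 397 CPM in control and 187 to 219.9 CPM in SBMA. Of the 18 interferon and class I genes, 5 fell there (Irf1, Irf9, H2-D1, Tapbp and Gbp2), and the sums were 668 to 797 and 584 to 709 CPM. Endothelial markers fell for 3 of 8, at 482 to 735 CPM in control and 448 to 502 CPM in SBMA. Fibroadipogenic markers fell for 3 of 7, at 1452 to 1930 CPM and 1153 to 1630 CPM, while junction markers rose for 5 of 8, at 88.7 to 153 CPM and 269.6 to 317 CPM. These counts stand beside the 16.1% of all genes that fell and the 16.1% that rose in that comparison. No leukocyte marker was at 0 in all libraries, although Cd3e reached only 0.662 CPM, and the part of all these markers in the Psmb8 difference was not tested.

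**Figure D5:**
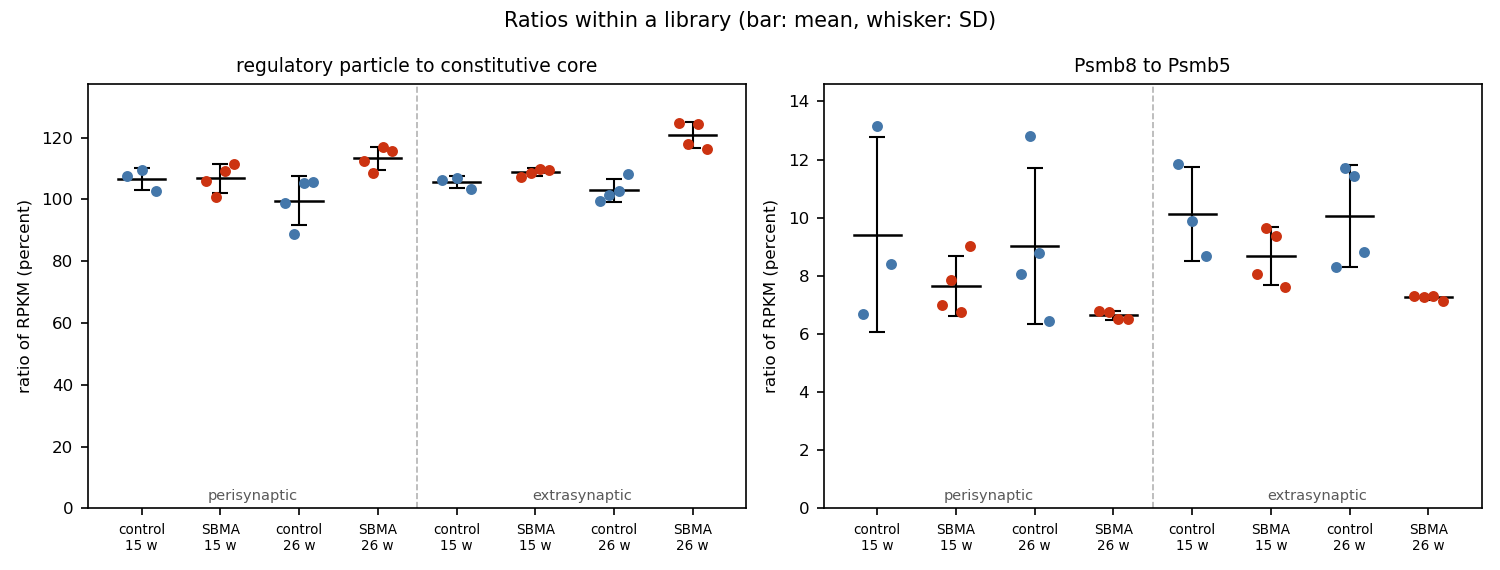
Ratio of mean regulatory particle to mean core RPKM (left) and of Psmb8 to Psmb5 RPKM (right), in percent, for each library of the 8 groups. At 26 weeks the SBMA libraries lie above the controls in the left panel in both regions, and in the right panel the extrasynaptic SBMA libraries (7.15% to 7.32%) lie below the controls (8.30% to 11.7%).

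At 15 weeks no proteasome gene passed the test in either region. Perisynaptic libraries gave 0 calls in edgeR, where 0.210% of all genes were called. There 2 members had an unadjusted p under 0.05, against 7.11% of all genes, and DESeq2 called 0 members among 129 called genes. Extrasynaptic libraries gave 0 calls in edgeR, where 1.22% of all genes were called. DESeq2 called 2 members there (Psmd1 and Psme4), where it called 518 of all 15526 genes. In edgeR, 7 extrasynaptic members had an unadjusted p under 0.05. Those 7 are 14.6% of the members, close to the 14.4% of all genes with such an unadjusted p.

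Of the 13 extrasynaptic risers of 26 weeks, 6 had groups apart at 15 weeks (Psmc6, Psmd1, Psmd5, Psmd12, Psmd14 and Psme4), without passing. Their 13 log2 differences at 15 weeks ran from 0.00 to 0.41 with a median of 0.07, and Psmc1, Psmd8, Psmd10 and Psmd13 were at 0.03 or less. Of the 8 perisynaptic risers, Psmd1 and Psmd14 had groups apart at 15 weeks, and the median was 0.13. How many of all genes had groups apart at 15 weeks was not counted. The risers were chosen by their calls at 26 weeks, so these counts do not show an earlier rise. Psmd1 was 135, 138 and 130.3 CPM in 3 control and 158, 158, 160.3 and 150.3 CPM in 4 SBMA extrasynaptic libraries, which did not overlap (log2 difference 0.22, interval 0.07 to 0.36, adjusted p = 0.145). Its perisynaptic difference was 0.26 (interval 0.01 to 0.51, adjusted p = 0.654), also without overlap. Psme4 was 226, 240.1 and 191 CPM in control and 302, 291, 273 and 303 CPM in SBMA extrasynaptic libraries, apart by 0.41 (interval 0.18 to 0.64, adjusted p = 0.0786). Psmd14 differed by 0.17 (interval 0.01 to 0.32) extrasynaptic and 0.26 (interval 0.05 to 0.47) perisynaptic, with groups apart in both.

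The log2 difference of Psmd8 in extrasynaptic libraries was near 0 at 15 weeks. Its values were 125, 115 and 123 CPM in control and 116, 111, 140.5 and 118 CPM in SBMA, overlapping, at a difference of 0.00 (interval -0.21 to 0.21). Psmb8 was 9.28, 8.70 and 8.79 CPM against 6.92, 7.66, 7.56 and 6.21 CPM, with SBMA below control throughout (-0.34, interval -0.60 to -0.07, adjusted p = 0.228). The perisynaptic Psmb8 groups overlapped (-0.15, interval -0.74 to 0.43). The medians of lid, base and core were 0.02, 0.01 and -0.02 in extrasynaptic and 0.09, 0.00 and 0.03 in perisynaptic libraries.

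The change with age was tested within each genotype. All mice of 26 weeks had lower library numbers than all mice of 15 weeks, so age and library number cannot be told apart. In SBMA extrasynaptic muscle 6 members rose from 15 to 26 weeks and none fell, where 6.52% of all genes rose and 5.62% fell (12.1% in all). These were the lid genes Psmd11 and Psmd13, the base genes Psmc1 and Psmd1 and the chaperones Psmd5 and Psmd10, with log2 differences from 0.23 to 0.33. Psmc1, an ATPase of the base ring, went from 82.1, 81.9, 91.2 and 86.9 CPM at 15 weeks to 118, 103, 106 and 103 CPM at 26 weeks (log2 difference 0.33, SE 0.079, adjusted p = 0.0135), with no overlap. Psmd13, a lid scaffold, rose by 0.29 (SE 0.067, adjusted p = 0.0123). Leaving out 1 mouse at a time gave 2 to 5 calls, all below 6, the lowest count without SBMA replicate 1 of either age or replicate 3 of 26 weeks.

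In SBMA perisynaptic muscle only Psma5 rose, where 2.35% of all genes rose and 1.60% fell (3.95% in all). There 11 members (22.9%) had an unadjusted p under 0.05, against 17.0% of all genes. DESeq2 called 3 members among 1075 genes. Psma5 went from 13.2, 14.6, 14.3 and 13.7 CPM at 15 weeks to 20.8, 21.0, 16.7 and 16.9 CPM at 26 weeks (0.45, SE 0.12, adjusted p = 0.0489), and 6 of 8 fits without 1 mouse lost the call. In control mice no member was called in either region, where 0.00% of all genes were called in both regions. Unadjusted p was under 0.05 for 0 perisynaptic members, against 5.66% of all genes. It was so for 2 extrasynaptic ones (Psme2 and Psmg2), or 4.17% against 6.67% of all genes. DESeq2 called 0 members in both.

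Whether the genotype difference changed between ages was tested by an interaction term. It gave 0 calls for proteasome genes in both regions, where 0.375% of all genes were called in perisynaptic and 1.73% in extrasynaptic libraries. In extrasynaptic libraries 7 members (14.6%) had an unadjusted p under 0.05, against 15.7% of all genes. DESeq2 called Psmd11 there, where it called 649 of all 15526 genes. In perisynaptic ones 1 member (2.08%) had such a p, against 8.28% of all genes, and DESeq2 called 0 members. The extrasynaptic estimates were 0.41 for Psmd8 (interval 0.12 to 0.70, adjusted p = 0.154), 0.31 for Psmd13 (interval 0.10 to 0.52, adjusted p = 0.138) and 0.25 for Psmd11 (interval 0.07 to 0.43, adjusted p = 0.156). Without control replicate 2 of 26 weeks, edgeR called 1 extrasynaptic member.

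The comparison of perisynaptic with extrasynaptic pieces of the same mice called no member by edgeR. Calls were 0 in control mice at 15 and 26 weeks and in SBMA mice at 15 and 26 weeks, where 1.16%, 1.18%, 0.948% and 2.07% of all genes were called, in that order. Unadjusted p was under 0.05 for 0, 3, 2 and 24 of the 48 members, beside 7.92%, 14.1%, 6.59% and 23.8% of all genes. DESeq2 called 1 member, Psma7, in SBMA mice at 26 weeks, where it called 505 of all 16138 genes. In that comparison 5 members passed in edgeR without SBMA replicate 4, among 1594 called genes. In those mice the log2 difference was above 0 for all 14 core genes, none of which passed in edgeR, with a median of 0.18 beside 0.00 over all genes. Psma7, an alpha subunit, was at 0.27 (interval 0.12 to 0.43, adjusted p = 0.0663). The interaction of genotype with region called 0 members at 15 weeks (0.00% of all genes) and 0 at 26 weeks (0.0124%), with 0 and 1 members at an unadjusted p under 0.05 and no DESeq2 call among them. The difference in the number of calls between regions is thus not a tested difference between regions.

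Genes that work with the proteasome moved in part with the regulatory particle. Of 29 tested partner genes, 9 rose in extrasynaptic muscle at 26 weeks. The ubiquitin-activating enzyme Uba1 rose by 0.58 (adjusted p = 1.51e-05), the segregase Vcp, which pulls ubiquitinated proteins from complexes, by 0.52 (adjusted p = 4.98e-05), the proteasome-bound deubiquitinase Usp14 by 0.45 (adjusted p = 0.000422) and the arsenite-induced proteasome adaptor Zfand2a by 0.40 (adjusted p = 0.000643). Ube3c, Ubqln2, Ufd1, Nploc4 and Nfe2l1 also rose. Nfe2l1, chosen here after its value was seen, was 980.3 ± 129 CPM in control and 1228 ± 111 CPM in SBMA (SD, n = 4 each), at 0.32 (adjusted p = 0.0112).

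In perisynaptic muscle at 26 weeks 3 partners rose (Uba1 by 0.59, Vcp by 0.57 and Zfand2a by 0.52), while Nfe2l1 was at 0.23 and did not pass (adjusted p = 0.325). At 15 weeks 0 partners passed in either region. An unadjusted p under 0.05 was found for 3 perisynaptic and 7 extrasynaptic ones, beside 7.11% and 14.4% of all genes. DESeq2 called 1 partner (Uba1, extrasynaptic), where it called 518 of all 15526 genes. The core maturation genes Pomp and Akirin2 and the subunit genes Adrm1 and Sem1, which the symbol rule leaves out, gave 0 calls in the 4 genotype comparisons, with none at an unadjusted p under 0.05 and none called by DESeq2.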

How the data were processed

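Whole-number read counts per gene were deposited by the authors for 30 libraries, made with featureCounts on mm10 per the submitters' processing notes, from poly(A)-captured KAPA Stranded mRNA libraries of miRNeasy RNA per the labels' protocols; aligner and strand setting: not given in the sources used here. Counts were used as deposited. They sum reads over a gene, so RNA quality and exon length can shift them. Of 33076 genes, 33064 matched the GENCODE annotation by ID without version (the other 12 held 0.00171% of counts).

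Each region was fitted over its 15 libraries with edgeR 4.0.16 (R 4.3.3) quasi-likelihood tests, TMM scaling, filterByExpr (minimum count 10, minimum total 15) and prior count 2, on 4 group means with 11 residual degrees of freedom; regions were compared in 1 fit of all 30 libraries with an animal term (19 columns, 11 residual degrees of freedom). Adjusted p is Benjamini-Hochberg over all tested genes (15735 perisynaptic, 15526 extrasynaptic, 16138 joint), called under 0.05. SE is the log2 difference over the square root of F, and intervals are 95%. RPKM divides CPM by the summed exon length. The scripts were tested on simulated data. Counting error sets the precision of genes of few reads.

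The members and lists were chosen with earlier results of these data known. Named were all called members where 12 or fewer passed, otherwise the 6 largest rises and falls, the 3 immunoproteasome genes and their counterparts, members under the count filter, and up to 4 partner genes of smallest p. Some partner genes, lower calls among them, are not reported here. Alternatives were DESeq2 1.42.0, RLE and total-count scaling, no count filter, replicate and library-number blocks, only the groups compared, and leaving out each mouse. Fits within runs of library numbers kept all 15 libraries of a region in the model and compared genotypes only within a run. These fits, and the comparison by exon length, were chosen after seeing the data. Both regions of a mouse correlated by more than 0.1 in their deviations from group means for 14 of 15 mice. Pseudogenes, 4 in all with at most 19 reads, were left out.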

Additional observations from a re-analysis of the deposited data

Results flagged for a closer look

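In groups of 4 libraries, 9 of 156 tested proteasome values had 1 library far from the other 3 (the gap to the nearest over the whole range passed Dixon's 95% critical value), where chance gives about 1 in 20. Of these, 6 lay in replicate 2 of the 26-week control perisynaptic group. The summed immunoproteasome level was 55.9 CPM there against 25.3 to 27.5 CPM in the other 3 libraries. Psmb8 was 17.2 CPM (others 6.05 to 7.57), Psmb9 8.45 CPM (others 2.87 to 3.33) and Psmb10 30.3 CPM (others 14.6 to 16.7). Psmb5, the constitutive counterpart of Psmb8, was also high at 35.6 CPM (others 22.9 to 24.9), and the chaperone gene Psmd5 was low at 16.3 CPM (others 19.4 to 19.96).

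The extrasynaptic library of that mouse had the highest value of its group for 34 of 48 members, with an immunoproteasome sum of 40.6 CPM against 26.0 to 31.7 CPM. In its perisynaptic library, the median log2 deviation of all genes from the shortest to the longest quartile of exon length ran 0.29, 0.09, -0.09 and -0.32. The part of length and of the other cell types' markers in these values was not tested.

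The other 3 values were Psmc1 at 85.8 CPM in SBMA perisynaptic replicate 4 at 15 weeks (others 90.7 to 91.6), Psmd2 at 237 CPM in SBMA perisynaptic replicate 2 at 15 weeks (others 229 to 229.6), and Psmd1 at 155 CPM in control extrasynaptic replicate 4 at 26 weeks (others 131 to 133).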

How the results depend on the processing

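Counts of called proteasome genes kept within 1.5 times their value in 182 alternative fits and moved further in 34. Most comparisons had 0 calls in the main fit, and a fit that again gave 0 was counted as kept. The total thus does not measure how steady the calls were in comparisons that had any. For SBMA minus control at 26 weeks, the 9 perisynaptic calls became 20 with total-count scaling, 2 when only the groups compared were fitted, 0 within the run of replicates 3 and 4, and 5 to 13 without 1 mouse; the 17 extrasynaptic calls became 5 within that run and 12 to 17 without 1 mouse. The 0 extrasynaptic calls at 15 weeks became 2 (DESeq2), 9 (total counts) and 1 (no filter). From 15 to 26 weeks in SBMA mice, the 1 perisynaptic call became 3 (DESeq2), 8 (total counts), 0 (no filter), 2 (only groups compared) and 0 to 1 without 1 mouse, and the 6 extrasynaptic calls 13 (total counts), 2 (no filter), 10 (only groups compared) and 2 to 5 without 1 mouse. The 0 calls of genotype by age in extrasynaptic libraries became 1 (DESeq2) and 0 to 1 without 1 mouse. Between regions, the 0 calls became 1 in control mice at 26 weeks (no filter) and, in SBMA mice at 26 weeks, 1 (DESeq2), 4 (total counts), 6 (no filter) and 0 to 5 without 1 mouse. The cause was not tested, except that total-count scaling shifts all genes.

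With the replicate number as a block, 8 perisynaptic and 14 extrasynaptic members passed at 26 weeks (Psmd12 perisynaptic then had an adjusted p of 0.0603 and Psmb2 extrasynaptic 0.0514). Same-numbered mice did not all deviate together (3 of 4 pairs over 0.1 in each region at 26 weeks, 0 of 3 at 15 weeks), so the numbers were not taken as pairs. Without the animal term, comparisons of regions also gave 0 calls. A block for 15 against 26 weeks was not run, since those mice share only a number.

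Among the named genes, to which the alternatives by gene were limited, those whose log2 difference changed sign had not passed the test in that comparison. At 15 weeks the earlier run of library numbers holds 1 control and the later run 1 SBMA mouse, so values within those runs rest on a lone mouse, assumed to vary like the others. At 15 weeks, perisynaptic Psmb5 was -0.012 with the library-number block, -0.040 within the later run of library numbers and -0.056 to 0.18 without 1 mouse; Psmb6 was -0.040, -0.097 and -0.068 to 0.084. Psmb7 was -0.047 in the later run, Psmb8 0.12 in the earlier run, and Psmb10 0.051 with total counts, 0.0083 in the later run and -0.099 to 0.015 without 1 mouse. At 26 weeks, perisynaptic Psmb6 was 0.24 with total counts, 0.0024 with no filter, 0.015 with the replicate block, 0.0024 with the library-number block, 0.066 in the later run and -0.11 to 0.19 without 1 mouse. Psmb7 was -0.0011 in the later run and -0.029 to 0.025 without 1 mouse, and Psmb8 -0.55 to 0.052 without 1 mouse. At 15 weeks, extrasynaptic Psmb5 was 0.067 with total counts and 0.065 in the earlier run; Psmb6 was 0.16, 0.040 and, without 1 mouse, -0.080 to 0.033. Psmb7 was -0.031 in the earlier run, and Psmb10 0.089 with total counts. At 26 weeks, extrasynaptic Psmb5 was -0.046 in the earlier run and -0.00019 to 0.052 without 1 mouse. Psmb6 was 0.12 with total counts and 0.050 in the later run, Psmb7 0.13 with total counts, and Psmb10 -0.016 to 0.20 without 1 mouse. Genes of few reads, such as Psmb9 and Psmc3ip, have wide intervals.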

Other observations

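The share of all counts in the 49 proteasome genes without Psmc3ip was 0.310% to 0.539% over the 30 libraries. At 26 weeks it was 0.318% to 0.386% in control and 0.417% to 0.444% in SBMA extrasynaptic libraries, and 0.313% to 0.425% against 0.431% to 0.539% in perisynaptic ones, without overlap in either region. This share is not scaled by TMM and so also moves with the share taken by abundant muscle transcripts, whose summed level was lower in SBMA.

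The 6 activator and inhibitor genes, of which Psme4 holds most of the reads, summed to 360 to 394 CPM in 3 control and 437 to 466 CPM in 4 SBMA extrasynaptic libraries at 15 weeks, and to 338 to 375 CPM against 411 to 445 CPM in perisynaptic ones. Neither region overlapped between genotypes at that age, although edgeR did not call Psme4 in either (DESeq2 called it in extrasynaptic libraries). At 26 weeks the perisynaptic sums overlapped (264 to 372 CPM in control, 342 to 447 CPM in SBMA), and the extrasynaptic ones did not (337 to 377 CPM and 395 to 472 CPM).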
